A study of Arabidopsis thaliana with 30 samples.

Results

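Nitrate transport and reduction in the excised leaf were followed through 9 Arabidopsis thaliana genes, chosen by name and locus out of the 33602 genes of the count table. They were the transporters NRT1.1 (AT1G12110), NRT1.5 (AT1G32450), NRT1.7 (AT1G69870), NRT2.1 (AT1G08090), NRT2.4 (AT5G60770) and NRT2.5 (AT1G12940), the nitrate reductases NIA1 (AT1G77760) and NIA2 (AT1G37130), and the nitrite reductase NIR1 (AT2G15620). In the TAIR10.1 annotation NIR1 lies at chr2:6810395-6812941, NRT2.4 at chr5:24444365-24447127 and the others on chromosome 1. RNA was sequenced from petioles of the 4th rosette leaf, taken from 21-day-old plants every 24 h from the moment of excision to 96 h, in 2 genotypes with 3 replicates per group, which gave 10 groups and 30 libraries. The wild type (WT) was Col carrying the ORE1::LUC reporter, and eur1-11 was a line induced by EMS in that same reporter background, so every library carried ORE1::LUC. eur1-11 has a premature stop in EAR1 (also called EUR1), a negative regulator of abscisic acid signalling, and as a single EMS line it may hold further mutations. Leaves were floated on MES buffer, for which the methods named no nitrogen source, under continuous white light dimmer than that of the growth room, and the 0 h leaves came straight from soil-grown plants. Time since excision, time on the buffer and the change of light therefore cannot be told apart.

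Nitrate enters and moves through plant tissue by membrane transporters. The NRT1 proteins (NPF family) mostly work when nitrate is plentiful, while the NRT2 proteins have a high affinity and are best known from nitrogen-starved roots. Inside the cell, nitrate reductase in the cytosol makes nitrite and nitrite reductase in the plastid turns it into ammonium for amino acid synthesis. In Arabidopsis many of these genes respond to nitrate within minutes to hours, and NIR1 and the nitrate reductases are widely used markers of that response.

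The NRT2 genes included a transporter with a large early rise, one that rose late in WT and one never read. The 250 bases before the annotated start of each are therefore shown. The sequences were taken from the TAIR10.1 genome and run 5′ to 3′ on the plus strand, which is the coding strand of all of them. Capitals mark GAATC on either strand (GATTC when read on the printed strand) and GAATATTC, which are sequences known to be bound by repressors of the HRS1 family. The 3 windows are chr1:4416065-4416314 (NRT2.5), chr1:2523773-2524022 (NRT2.1) and chr5:24444115-24444364 (NRT2.4).
NRT2.5: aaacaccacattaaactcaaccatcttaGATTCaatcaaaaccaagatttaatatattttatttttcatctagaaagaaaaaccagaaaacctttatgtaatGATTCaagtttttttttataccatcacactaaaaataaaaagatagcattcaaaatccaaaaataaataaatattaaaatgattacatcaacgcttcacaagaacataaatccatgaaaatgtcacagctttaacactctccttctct
NRT2.1: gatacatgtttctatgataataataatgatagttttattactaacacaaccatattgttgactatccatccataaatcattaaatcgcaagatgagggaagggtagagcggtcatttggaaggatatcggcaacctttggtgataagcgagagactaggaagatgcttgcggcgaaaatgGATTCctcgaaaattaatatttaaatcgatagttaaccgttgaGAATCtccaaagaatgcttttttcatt
NRT2.4: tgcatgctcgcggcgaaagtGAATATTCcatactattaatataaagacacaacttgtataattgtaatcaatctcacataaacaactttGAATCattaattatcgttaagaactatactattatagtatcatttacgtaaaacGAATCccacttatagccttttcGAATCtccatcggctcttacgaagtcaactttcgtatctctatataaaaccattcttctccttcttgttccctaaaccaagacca

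GAATC lay in the window of 5 of the 9 genes (NRT2.1, NRT2.4, NRT2.5, NIA1 and NIR1), and in 38.8% of 27443 such windows in the genome. The 8-base GAATATTC lay only before NRT2.4, and in 0.86% of all windows. GAATATTC holds no GAATC, and the marked matches did not overlap. These matches describe letters and were not set against the expression values.

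NRT2.4 had 0 counts in all 30 libraries, out of 1011314115 counts on genes, which allows at most 0.00297 CPM (counts per 1000000 counts on genes) over the series as far as counting error goes. The other 8 genes passed the filter on low counts and were among the 21472 genes tested. NRT2.1 (894 counts in 26 libraries) and NRT2.5 (5897 counts in 25 libraries) were sparse, whereas the rest had between 18284 (NRT1.5) and 706964 (NIA2) counts in all. NRT2.2, the near copy of NRT2.1 beside it on the chromosome, had a single count in the series, and reads that align equally well to both copies may have been left out of the counting, so the level of NRT2.1 is uncertain to that extent. The same holds for NRT2.4, which lies beside NRT2.3.

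Libraries held 22482318 to 43243161 counts on genes. Chloroplast transcripts fell from 62% of the counts at 0 h to 22.8% at 96 h in WT and from 57.4% to 21.9% in eur1-11. Levels are given as CPM scaled by TMM factors, which set most genes to a common level. Scaling by total counts instead moved the median gene up by 1.1 (24 h) to 1.6 (96 h) on the log2 scale in WT and by 1.02 to 1.48 in eur1-11, whereas leaving out the organelle genes moved it by at most 0.02. Replicate 3 stood apart. In 10 of 10 groups the smallest distance was that between replicates 1 and 2, with a root mean square difference in log2 CPM of 0.319 to 0.516, against 0.506 to 0.891 for pairs that included replicate 3. Since the labels do not tell whether replicates came from separate plants, the p-values cover the spread among libraries, which may be technical. EAR1 transcript was present in both genotypes, at group means of 232 to 375 CPM in WT and 184 to 293 CPM in eur1-11 (log2 difference over the 5 times -0.30 ± 0.07, SE; edgeR adjusted p = 0.0133), and a level does not check a premature stop.

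Markers of cell types moved with time as well. The summed level of 7 genes of photosynthetic leaf cells fell from 26262 to 32138 CPM at 0 h to 1515 to 1894 CPM at 96 h in WT, with none at 0. The 6 phloem markers summed to 756 to 1032 CPM at 0 h, 586 to 647 CPM at 24 h and 681 to 735 CPM at 96 h in WT, again with none at 0. The 6 xylem markers, none at 0, summed to 119 to 145 CPM at 0 h in WT. They summed to 59.6 to 63.9 CPM at 48 h and to 92 to 128 CPM at 96 h. The 48 h range lay below those of 0 and 96 h, and the 72 h range (45.9 to 136 CPM) overlapped it. In eur1-11 they went from 119 to 159 CPM at 0 h to 39 to 86.7 CPM at 48 h. There the 72 and 96 h ranges (40.7 to 154 and 61.1 to 120 CPM) overlapped that of 48 h. In each genotype 2 of the 6 xylem markers passed the test at 48 h, both lower, against 68.8% and 66% of all genes. The 10 root identity genes went from 7.18 to 7.96 CPM at 0 h to 607 to 676 CPM at 96 h in WT. This was nearly all PYK10, a beta-glucosidase of endoplasmic reticulum bodies (639 ± 35.5 CPM, SD, n = 3), since the other 9 summed to 5.72 to 7.08 CPM at 0 h and 6.3 to 6.82 CPM at 96 h, with PLT2, RHD6 and COBL9 at 0. Of the 10, 3 were tested, and 2 passed in WT at 96 h, both higher (median log2 change 7.13), against 68.9% of all genes. In eur1-11 1 passed, also higher, against 68%. A flat sum of the other 9 thus does not mean that PYK10 alone rose. In eur1-11 the same sums at 96 h were 1046 to 1745 CPM for photosynthetic cells, 541 to 656 for phloem, 61.1 to 120 for xylem and 642 to 691 for root identity. In such bulk samples fewer cells of a type and less RNA per cell cannot be told apart, and the part of these shifts in the values below was not tested.

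NRT1.1, the dual-affinity transporter and nitrate sensor of the plasma membrane, rose after excision in both genotypes and stayed high. In WT the 3 libraries read 125, 102 and 122 CPM at 0 h and 448, 446 and 189 CPM at 24 h. They read 480, 526 and 296 CPM at 48 h, 439, 486 and 463 CPM at 72 h, and 433, 392 and 449 CPM at 96 h. Every later library lay above every 0 h library, and replicate 3 was the low one at 24 and 48 h. The log2 fold change was 1.59 ± 0.21 (SE) at 24 h (adjusted p = 6.75e-07) and 1.87 ± 0.21 at 96 h (adjusted p = 7.22e-08). In eur1-11 the levels were 100, 104 and 89 CPM at 0 h, 526, 507 and 448 CPM at 24 h, 669, 628 and 495 CPM at 48 h, 510, 581 and 519 CPM at 72 h, and 545, 526 and 517 CPM at 96 h, again with no overlap between 0 h and any later time. Here the log2 fold change was 2.34 ± 0.21 at 24 h and 2.44 ± 0.21 at 96 h (adjusted p = 4.16e-09 and 1.6e-09). Group means at 96 h were 3.65 times the 0 h mean in WT and 5.41 times in eur1-11. Between 24 and 96 h no further change passed the test with TMM factors, at 0.28 ± 0.20 in WT and 0.11 ± 0.20 in eur1-11. With total counts it did, at 0.78 ± 0.22 (adjusted p = 0.00487) and 0.56 ± 0.22 (adjusted p = 0.034).

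**Figure D1:**
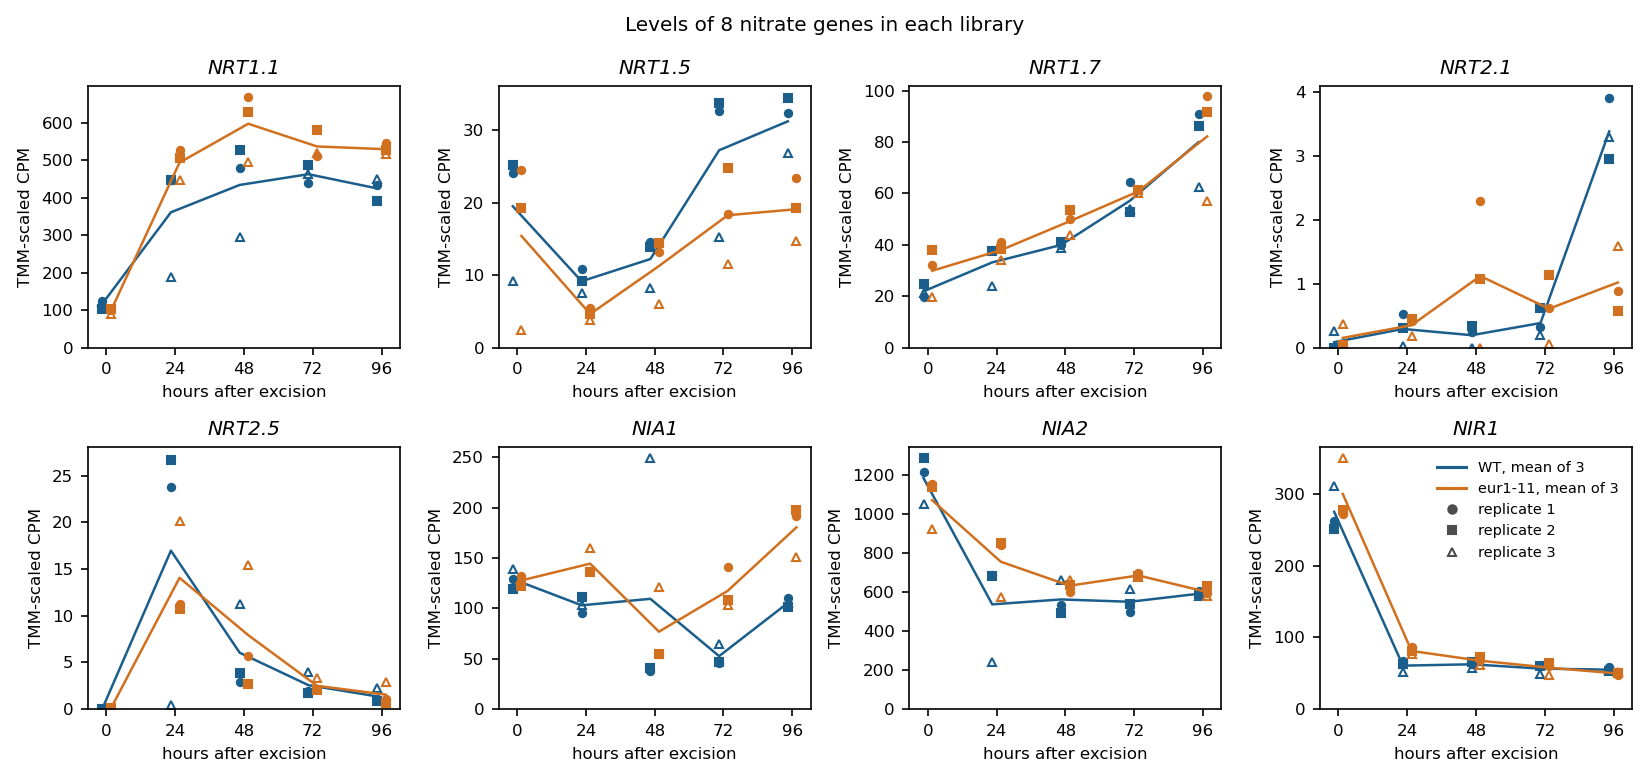
TMM-scaled CPM of the 8 genes with enough counts to test, by hours after excision, each panel on its own linear axis from 0. Points are single libraries (replicate 3 as open triangles) in WT (blue) and eur1-11 (orange), lines join the means of 3, and NRT1.1 rises while NIR1 falls in both genotypes, from 276 to 55 CPM for NIR1 in WT.

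NRT1.7, which loads nitrate into the phloem of older leaves for export to younger ones, climbed step by step. In WT it read 19.7, 24.8 and 21.2 CPM at 0 h, 38.1, 37.6 and 23.8 CPM at 24 h, 40.1, 41.1 and 38.6 CPM at 48 h, 64.6, 52.7 and 54.1 CPM at 72 h, and 91.1, 86.4 and 62.4 CPM at 96 h. The 24 h libraries overlapped with those of 0 h through replicate 3, and from 48 h on the groups were apart. The log2 fold change against 0 h grew from 0.58 ± 0.16 at 24 h (adjusted p = 0.00298) to 1.85 ± 0.16 at 96 h (adjusted p = 2.12e-09). Without replicate 1 the 24 h change was 0.39 (adjusted p = 0.151). In eur1-11 NRT1.7 read 32, 38.1 and 19.6 CPM at 0 h, 41.1, 38.5 and 34.2 CPM at 24 h, 50, 53.6 and 43.9 CPM at 48 h, 61.2, 61.2 and 60 CPM at 72 h, and 97.9, 91.6 and 57.1 CPM at 96 h. Its means rose from 29.9 ± 9.41 CPM at 0 h to 82.2 ± 22 CPM at 96 h (SD, n = 3), a log2 change of 1.46 ± 0.16 (adjusted p = 5.03e-08). Its change at 24 h was small, 0.37 ± 0.16 (adjusted p = 0.043), with overlap between the 0 and 24 h libraries, and without replicate 3 it was 0.17 (adjusted p = 0.166). The call was also lost without replicate 1, without the replicate block, without organelle genes and in DESeq2 (adjusted p = 0.172, 0.159, 0.0538 and 0.0709). From 24 to 96 h NRT1.7 rose by a log2 value of 1.28 ± 0.16 in WT and 1.09 ± 0.16 in eur1-11.

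NRT1.5, known for loading nitrate into the xylem of roots, went down and then up. The WT libraries read 24.1, 25.2 and 9.21 CPM at 0 h, 10.8, 9.15 and 7.51 CPM at 24 h, 14.6, 13.9 and 8.16 CPM at 48 h, 32.7, 33.8 and 15.2 CPM at 72 h, and 32.4, 34.5 and 26.8 CPM at 96 h. In eur1-11 they read 24.5, 19.3 and 2.42 CPM at 0 h, 5.44, 4.68 and 3.78 CPM at 24 h, 13.2, 14.5 and 6.07 CPM at 48 h, 18.5, 24.8 and 11.5 CPM at 72 h, and 23.4, 19.2 and 14.7 CPM at 96 h. Replicate 3 was the lowest library in 10 of 10 groups, and the 0 h range overlapped that of every later time except 96 h in WT. The later rise did not turn on the 0 h libraries, since the log2 change from 24 to 96 h was 1.79 ± 0.33 in WT (adjusted p = 0.000347) and 2.04 ± 0.34 in eur1-11 (adjusted p = 0.000142), with no overlap between the groups. The early fall was -0.99 ± 0.34 in WT (adjusted p = 0.013) and -1.54 ± 0.35 in eur1-11 (adjusted p = 0.000552). Without replicate 3 it was -1.31 and -2.15, both past the threshold, without replicate 1 it was -0.88 and -1.07 and without replicate 2 -0.75 and -1.25, none past it. Without the replicate block it was -1.10 in WT (adjusted p = 0.0613). With total-count scaling it was 0.11 in WT and -0.52 in eur1-11, neither past the threshold. Against 0 h the WT level at 96 h was higher by 0.80 ± 0.33 (adjusted p = 0.035), which without the replicate block was 0.67 (adjusted p = 0.238) and was also not past the threshold without replicate 1 (0.99) or replicate 2 (1.0), and that of eur1-11 gave 0.50 ± 0.33 (adjusted p = 0.185). The 3′ end of NRT1.5 in TAIR10.1 shares 16 bases with AT1G32440 on the other strand, and the strand setting of the counting is not given in the sources used here.

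NRT2.5, a high-affinity transporter of starved plants that is also found in leaf veins, was the one of these genes with the largest rise. It had 0 counts in all WT libraries at 0 h. At 24 h it read 23.8, 26.7 and 0.448 CPM, from 761, 857 and 14 counts, then 2.92, 3.9 and 11.3 CPM at 48 h, 1.97, 1.72 and 4 CPM at 72 h and 1.04, 0.821 and 2.21 CPM at 96 h. All later libraries lay above those of 0 h, and replicate 3 was far below the others at 24 h and above them afterwards. Set against 3 counts over the 0 h group, the mean was at least 263-fold higher at 24 h and at least 96.8-, 37.4- and 21.7-fold higher at 48, 72 and 96 h. In eur1-11, NRT2.5 had 3 counts at 0 h, all in replicate 2, and read 11.3, 10.7 and 20.2 CPM at 24 h, 5.65, 2.72 and 15.4 CPM at 48 h, 2.13, 2.07 and 3.28 CPM at 72 h and 1.1, 0.694 and 2.85 CPM at 96 h. The ratio of pooled counts, scaled for library size, was 278 at 24 h (95% exact interval 95 to 1351) and 28.4 at 96 h (9.57 to 139), for counting error only. In edgeR the difference from 0 h was past the threshold at every time in both genotypes, with adjusted p from 2.71e-05 (24 h) to 0.0233 (96 h) in WT and from 6.53e-05 to 0.0231 in eur1-11. The late calls were lost without replicate 1 and in part without replicate 2. Without replicate 1 the adjusted p at 72 and 96 h was 0.0718 and 0.134 in WT and 0.0829 and 0.15 in eur1-11, and without replicate 2 it was 0.0527 and 0.0998 in WT and 0.068 at 96 h in eur1-11. The decline from 24 to 96 h was -4.06 ± 0.87 in WT (adjusted p = 0.00142), where replicate 3 goes the other way and the value without it was -4.77, and -3.29 ± 0.83 in eur1-11 (adjusted p = 0.00465). With replicate 1 or replicate 2 left out neither decline passed the threshold, at -3.72 and -3.30 in WT and -3.25 and -3.04 in eur1-11.

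NRT2.1, the main high-affinity uptake transporter of roots, was near 0 until late in WT. In WT it had 3 counts at 0 h, all in replicate 3, and read 0.532, 0.311 and 0.032 CPM at 24 h, 0.24, 0.342 and 0 CPM at 48 h and 0.322, 0.627 and 0.203 CPM at 72 h. At 96 h it read 3.9, 2.96 and 3.29 CPM, above every earlier WT library. The ratio of pooled counts from 0 to 96 h was 51.3 (95% exact interval 17.4 to 250), with an adjusted p of 0.00123 in edgeR. From 24 to 96 h the log2 change was 3.71 ± 1.0 (adjusted p = 0.00612), and it missed the threshold at 4.52 without replicate 1 (adjusted p = 0.0875) and at 4.0 without replicate 2 (adjusted p = 0.106). In eur1-11 the levels were 0.0464, 0.0473 and 0.362 CPM at 0 h, 0.422, 0.451 and 0.176 CPM at 24 h, 2.29, 1.07 and 0 CPM at 48 h, 0.623, 1.14 and 0.0628 CPM at 72 h, and 0.888, 0.579 and 1.59 CPM at 96 h. There the log2 change to 96 h was 3.02 ± 1.26 (adjusted p = 0.0396), and it was 2.83 without the replicate block, 2.72 without replicate 1 and 2.85 without replicate 2 (adjusted p = 0.054, 0.208 and 0.187). Replicate 3 had 0 counts at 48 h in both genotypes. In eur1-11 the 48 h libraries spanned the range of those at 96 h. Without the replicate block the 48 h change there was 2.97 (adjusted p = 0.0446).

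NIR1, the plastid nitrite reductase, fell within 24 h and stayed low. In WT it read 262, 252 and 312 CPM at 0 h, 67.3, 63.5 and 51.1 CPM at 24 h, 63.4, 66.2 and 58 CPM at 48 h, 60.8, 60.1 and 48.7 CPM at 72 h, and 58.1, 52.8 and 54.1 CPM at 96 h. The groups were far apart, with 0 h at 4.54 times the 24 h mean. The log2 change was -2.19 ± 0.13 at 24 h (adjusted p = 1.18e-11) and -2.33 ± 0.13 at 96 h (adjusted p = 2.67e-12). In eur1-11 NIR1 read 273, 278 and 350 CPM at 0 h, 86.2, 80.6 and 76.7 CPM at 24 h, 68.5, 72.3 and 61.7 CPM at 48 h, 60.6, 65 and 47.8 CPM at 72 h, and 47.2, 50.7 and 51.1 CPM at 96 h. The changes there were -1.89 ± 0.13 at 24 h and -2.60 ± 0.13 at 96 h (adjusted p = 8.96e-11 and 5.83e-13). A further fall from 24 to 96 h was measured in eur1-11 at -0.71 ± 0.13 (adjusted p = 0.000269; -0.63, adjusted p = 0.0546, without replicate 1 and -0.25, adjusted p = 0.111, with total-count scaling), against -0.14 ± 0.13 in WT (adjusted p = 0.418; 0.36, adjusted p = 0.0234, with total-count scaling). The difference between those 2 spans was not tested.

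NIA2, the major nitrate reductase of the shoot, was the most abundant of the 9 genes at 0 h. It read 1212, 1286 and 1048 CPM at 0 h in WT, 687, 679 and 241 CPM at 24 h, 534, 491 and 658 CPM at 48 h, 496, 539 and 612 CPM at 72 h, and 603, 587 and 580 CPM at 96 h. No later WT library reached the 0 h range. In TMM-scaled values the log2 change was -1.17 ± 0.24 at 24 h (adjusted p = 0.000159) and -1.0 ± 0.23 at 96 h (adjusted p = 0.000763). In eur1-11 it read 1150, 1134 and 922 CPM at 0 h, 841, 849 and 571 CPM at 24 h, 600, 633 and 661 CPM at 48 h, 695, 680 and 676 CPM at 72 h, and 592, 628 and 577 CPM at 96 h. The change at 24 h did not pass (-0.51 ± 0.23, adjusted p = 0.0584), and that at 96 h was -0.83 ± 0.23 (adjusted p = 0.00353; -0.76 without replicate 1 and -0.82 without replicate 2, adjusted p = 0.0792 and 0.0656). The direction depended on the scaling. With total counts NIA2 was at -0.05 ± 0.24 at 24 h and 0.61 ± 0.24 at 96 h in WT (adjusted p = 0.851 and 0.0239) and at 0.65 ± 0.24 at 96 h in eur1-11 (adjusted p = 0.0171), so that NIA2 fell against the median gene and not against the library total.

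NIA1, the other nitrate reductase, was uneven among times and replicates. In WT it read 129, 119 and 139 CPM at 0 h, 94.9, 111 and 103 CPM at 24 h, 38.2, 41 and 249 CPM at 48 h, 46, 47.2 and 64.4 CPM at 72 h, and 110, 101 and 105 CPM at 96 h. Replicate 3 at 48 h was far above the other libraries of its group. With all replicates only the 72 h value passed the threshold (-1.32 ± 0.41, adjusted p = 0.00774). That value was -1.23 without replicate 1 and -1.31 without replicate 2 (adjusted p = 0.0701 and 0.0707), and 0.22 with total-count scaling (adjusted p = 0.609). At 48 h it was -0.42 ± 0.41 with replicate 3 and -1.66 ± 0.10 without it. In eur1-11 NIA1 read 132, 122 and 129 CPM at 0 h, 137, 136 and 160 CPM at 24 h, 54.7, 54.7 and 121 CPM at 48 h, 141, 108 and 103 CPM at 72 h, and 192, 198 and 151 CPM at 96 h, and no time passed the threshold. Without replicate 3 the log2 change was -1.23 ± 0.10 at 48 h and 0.61 ± 0.10 at 96 h, both past the threshold.

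**Figure D2:**
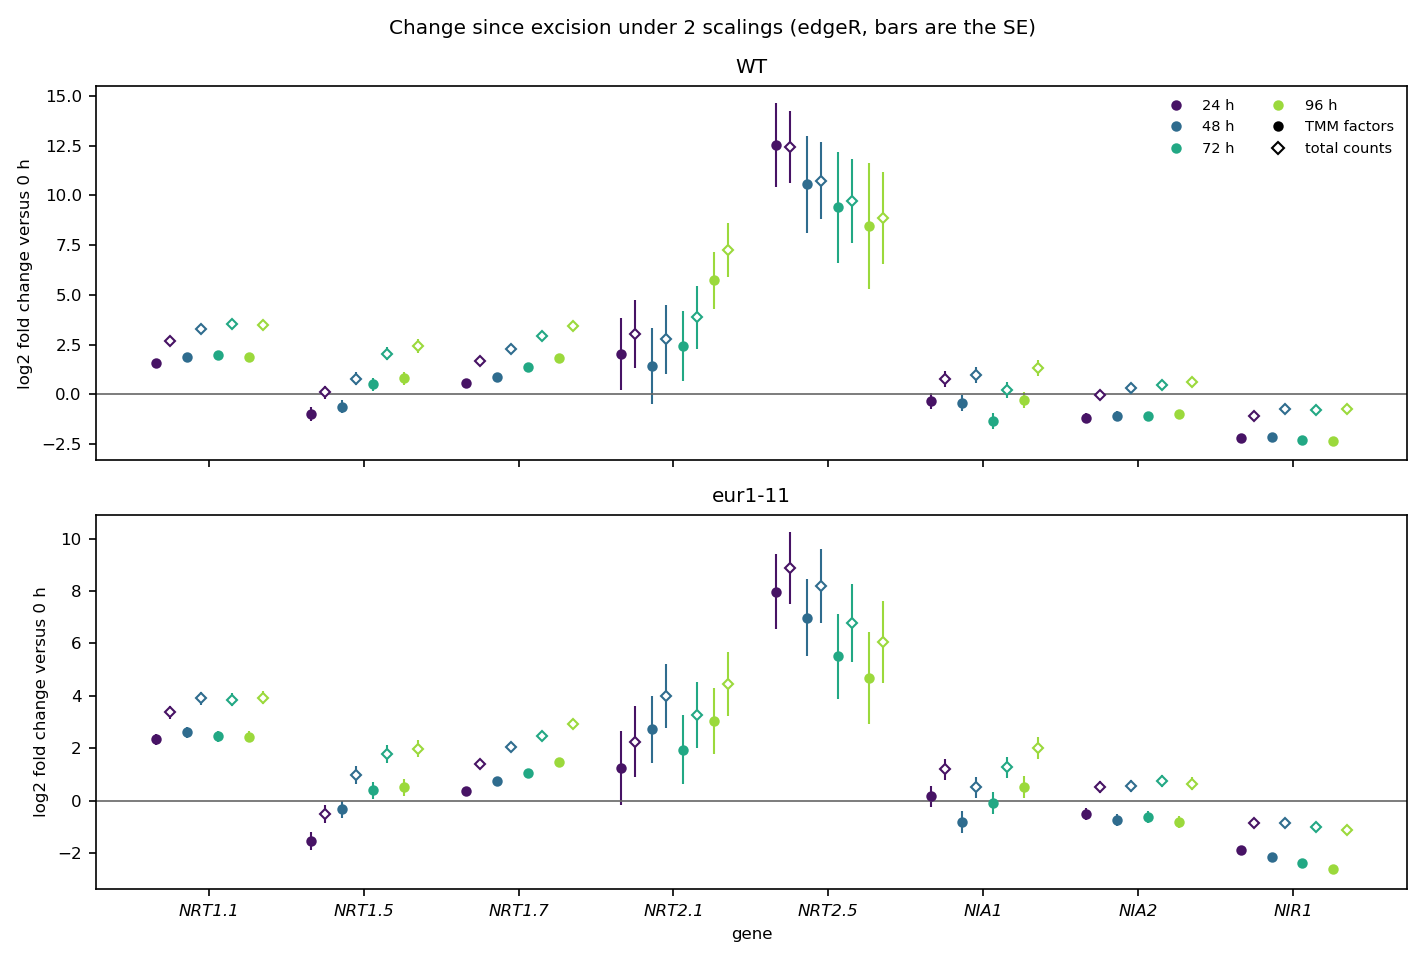
Log2 fold change of each gene against 0 h in WT (upper panel) and eur1-11 (lower panel), at 24, 48, 72 and 96 h, with bars of 1 SE from edgeR. Filled circles use TMM factors and open diamonds total counts, and NIA2 changes side between them (-1.0 and 0.61 at 96 h in WT) while NIR1 stays below 0 and NRT1.1, NRT1.7 and NRT2.5 above it.

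In numbers, 6 of the 8 tested genes passed the threshold (adjusted p under 0.05) at 24 h in WT, 3 higher and 3 lower, where 68% of all tested genes passed, 35.9% higher and 32.1% lower. It was 5 of 8 at 48 h against 68.8%, 6 at 72 h against 67.9%, and 7 at 96 h (5 higher, 2 lower) against 68.9% (38.1% higher, 30.8% lower). In eur1-11 the counts were 5 of 8 at 24 h (3 higher, 2 lower; background 66.3%, with 34.6% higher and 31.7% lower), and again 5 both at 48 h (66%) and at 72 h (65.8%). At 96 h 6 of 8 passed, 4 of them higher and 2 lower, against 68% of all genes (36.4% higher, 31.6% lower). From 24 to 96 h 4 of 8 passed in each genotype, against 36.5% and 36% of all genes. Most tested genes thus differed from 0 h, and the shares of these 8 were close to those of all genes. With total counts 4, 6, 6 and 8 of the 8 passed in WT, of which 1 at each time, NIR1, was lower, and 5, 7, 8 and 8 in eur1-11, again with NIR1 alone lower. Of all genes 80.1%, 84.3%, 86.4% and 87.8% then passed in WT and 80.1%, 84.4%, 86% and 87.4% in eur1-11. Of the 45 calls against 0 h, 27 held their direction and their side of the threshold under all 11 alternatives. In both genotypes these were NRT1.1 and NIR1 at all times, NRT1.7 from 48 h on and NRT2.5 at 24 and 48 h. In WT NRT2.1 at 96 h also held. The matching share for the calls of all genes is not given here.

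Ratios between genes within a library do not depend on the scaling. Per kb of exon, NIA2 stood at 3.17, 3.49 and 2.3 times NIR1 in WT at 0 h and at 7.11, 7.62 and 7.34 times at 96 h. In eur1-11 the ratio went from 2.88, 2.79 and 1.8 to 8.59, 8.47 and 7.72. The ratio of NRT1.1 to NIR1 moved further, from 0.474, 0.404 and 0.39 to 7.42, 7.39 and 8.27 in WT, and from 0.365, 0.374 and 0.253 to 11.5, 10.3 and 10.1 in eur1-11. None of these ranges overlapped between 0 and 96 h. The balance of the reductases moved up and down. In WT NIA1 was 0.108, 0.0942 and 0.135 of NIA2 at 0 h, 0.14, 0.166 and 0.434 at 24 h, 0.0726, 0.0848 and 0.384 at 48 h, 0.0942, 0.089 and 0.107 at 72 h, and 0.186, 0.174 and 0.183 at 96 h. The 24 and 96 h libraries thus lay above those of 0 h, whereas those of 48 and 72 h overlapped with them. In eur1-11 it was 0.117, 0.11 and 0.142 at 0 h and 0.329, 0.321 and 0.265 at 96 h, with 24 and 72 h also above 0 h (0.163 to 0.284 and 0.155 to 0.206) and 48 h overlapping (0.0879 to 0.186). With 3 libraries against 3, these ratios are given without a test.

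**Figure D3:**
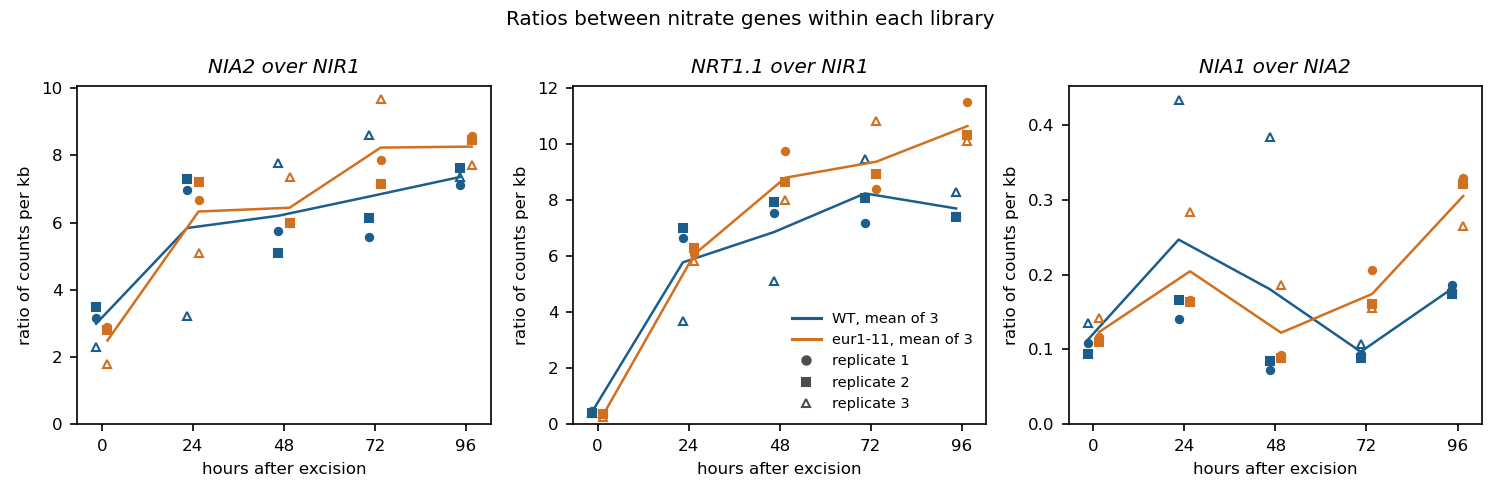
Ratios of counts per kb of exon within each library, by hours after excision, for NIA2 over NIR1, NRT1.1 over NIR1 and NIA1 over NIA2, with the axes starting at 0. Points are libraries (replicate 3 open) and lines join the means of 3, and the mean of NRT1.1 over NIR1 goes from 0.422 at 0 h to 7.69 at 96 h in WT and from 0.331 to 10.6 in eur1-11.

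The order of the levels per kb of exon changed with time. In WT at 0 h NIA2 led (369 ± 38.1 CPM per kb, SD, n = 3), before NIR1 (126 ± 14.7), NRT1.1 (52.9 ± 5.6) and NIA1 (41 ± 3.17). NRT1.7 (9.04 ± 1.08) and NRT1.5 (8.8 ± 4.04) followed and did not differ beyond their SD, and NRT2.1 was at 0.0404 ± 0.0699. At 96 h NRT1.1 (193 ± 13.4 CPM per kb) and NIA2 (184 ± 3.69) were first and not apart beyond their SD. NIA1 (33.3 ± 1.54) and NRT1.7 (33 ± 6.36) were likewise close, and after them came NIR1 (25.1 ± 1.26), NRT1.5 (14.1 ± 1.81), NRT2.1 (1.6 ± 0.224) and NRT2.5 (0.733 ± 0.405). In eur1-11 NRT1.1 (240 ± 6.55) stood above NIA2 (187 ± 8.12) at 96 h, and NIA1 (57.1 ± 8.17) above NRT1.7 (34 ± 9.07).

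Between the genotypes the study asked which genes follow the loss of EAR1. At single times none of the 8 genes passed the threshold in edgeR or in DESeq2. The share of all genes that passed in edgeR was 2.08% at 0 h, 0.331% at 24 h, 0.34% at 48 h, 0.48% at 72 h and 0.517% at 96 h. At an unadjusted p under 0.05 edgeR gave 1 gene at 0 h (NRT1.7), 4 at 24 h (NRT1.1, NRT1.5, NIA2 and NIR1), 2 at 48 h (NRT1.1 and NRT2.1), 1 at 72 h (NIA1) and 1 at 96 h (NRT1.5). The shares above are for adjusted p, so they are no background for these unadjusted counts, whose own background is not given here. Averaged over the 5 times NRT1.5 alone passed, against 5.71% of all genes, with a log2 difference of -0.58 ± 0.15 (adjusted p = 0.0221). At 24 h the NRT1.5 libraries read 10.8, 9.15 and 7.51 CPM in WT and 5.44, 4.68 and 3.78 CPM in eur1-11, and at 96 h 32.4, 34.5 and 26.8 against 23.4, 19.2 and 14.7 CPM, with no overlap at either time. At 0, 48 and 72 h the genotypes overlapped, and the log2 difference was -0.44 ± 0.33, -0.16 ± 0.33 and -0.55 ± 0.32. Without the replicate block the mean difference was -0.55 (adjusted p = 0.196), and it was -0.65, -0.62 and -0.49 when replicate 1, 2 or 3 was left out (adjusted p = 0.271, 0.377 and past the threshold).

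The libraries of the genotypes did not overlap in 13 of the 40 combinations of gene and time. These were 0 of 8 genes at 0 h, 4 at 24 h (NRT1.1, NRT1.5, NIA1 and NIR1), 1 at 48 h (NRT1.7), 3 at 72 h (NRT1.1, NIA1 and NIA2) and 5 at 96 h (NRT1.1, NRT1.5, NRT2.1, NIA1 and NIR1). The same was true of 16.8%, 10%, 9.7%, 15.9% and 16.7% of all tested genes at these times in turn. Some of these cases, chosen after their values were seen, are given here. NIA1 at 72 h read 46, 47.2 and 64.4 CPM in WT and 141, 108 and 103 CPM in eur1-11 (log2 difference 1.21 ± 0.41, adjusted p = 0.439), and at 96 h 110, 101 and 105 against 192, 198 and 151 CPM (0.80 ± 0.41, adjusted p = 0.728). NRT2.1 at 96 h read 3.9, 2.96 and 3.29 CPM in WT and 0.888, 0.579 and 1.59 CPM in eur1-11 (-1.63 ± 0.86, adjusted p = 0.747). NIR1 at 24 h read 67.3, 63.5 and 51.1 CPM in WT and 86.2, 80.6 and 76.7 CPM in eur1-11 (0.42 ± 0.13, adjusted p = 0.23). None of them passed the test. Standard errors were smaller without replicate 3, and then 1 gene passed at 0 h, 5 at 24 h, 5 at 48 h, 3 at 72 h, 4 at 96 h and 6 in the mean of times. In that fit 10.9%, 5.4%, 6.74%, 9.16% and 13% of all genes passed at 0 to 96 h and 21.8% in the mean. The genes that passed included NIA1 at 72 h (1.42 ± 0.10) and 96 h (0.89 ± 0.10), NRT2.1 at 96 h (-2.20 ± 0.37) and NIR1 at 24 h (0.35 ± 0.07), from 2 libraries per group. With the block set within each time, 3, 1, 1 and 2 genes passed at 24, 48, 72 and 96 h, against 2.37%, 2.51%, 1.8% and 2.73% of all genes. In the mean of times 6 of the 8 passed in that fit, against 16% of all genes.

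Whether the change since excision differed between genotypes was tested as an interaction. None of the 8 genes passed at any time in edgeR or in DESeq2, and 1, 1, 1 and 0 of them had an unadjusted p under 0.05 in edgeR at 24, 48, 72 and 96 h. The share of all genes that passed was 0% at 24 and 48 h, 0.014% at 72 h and 0.0792% at 96 h in edgeR, where 1880 and 1919 genes had an unadjusted p under 0.05 at 24 and 48 h and DESeq2 called 107 and 100. For NRT1.1 the log2 change in eur1-11 minus that in WT was 0.75 ± 0.28 at 24 h (adjusted p = 0.414) and 0.73 ± 0.28 at 48 h (adjusted p = 0.436), and for NIA1 it was 1.21 ± 0.58 at 72 h (adjusted p = 0.498). Without replicate 3, 3, 2, 3 and 3 genes passed at 24, 48, 72 and 96 h, against 3.66%, 3.26%, 5.84% and 7.67% of all genes in the same fit, among them NIA1 at 72 h (1.38 ± 0.14) and 96 h (0.85 ± 0.14) and NRT1.1 at 48 h (0.51 ± 0.13).

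The lists of related genes are read against all tested genes, of which 68% passed at 24 h in WT (35.9% higher, 32.1% lower) and 68.9% at 96 h (38.1% higher, 30.8% lower). With total counts these shares were 68% higher and 12.1% lower at 24 h and 78.9% higher and 8.92% lower at 96 h. In eur1-11 66.3% passed at 24 h (34.6% higher, 31.7% lower) and 68% at 96 h (36.4% higher, 31.6% lower). Among 20 other nitrate transporters and channels, 17 were tested and 12 passed at 24 h in WT, 3 higher and 9 lower (median log2 change -0.40, all genes 0.07), a number near the 68% of all genes, or 8 higher and 4 lower with total-count scaling. At 96 h 15 passed, 5 higher and 10 lower (median -0.92, all genes 0.16), or 10 higher and 4 lower with total counts. In eur1-11 11 of 17 passed at 24 h, 5 higher and 6 lower, and 13 at 96 h, 4 higher and 9 lower. NRT1.8, which takes nitrate back out of the xylem sap, rose from 0.233 ± 0.121 to 40.8 ± 30.6 CPM at 24 h (SD, n = 3; log2 7.37 ± 0.96, adjusted p = 7.19e-07) and stood at 8.23 ± 3.64 CPM at 96 h. NRT3.1, the partner protein that NRT2 transporters need, rose from 3.85 ± 0.591 to 45.5 ± 33.4 CPM at 24 h (log2 3.53 ± 0.52). NRT1.11, which moves nitrate between xylem and phloem in the petiole, fell from 459 ± 32.8 to 32.6 ± 5.6 CPM at 96 h (log2 -3.89 ± 0.51, adjusted p = 7.71e-07), and the anion channel SLAH3 from 83.4 ± 16.2 to 11.5 ± 4.24 CPM at 24 h (log2 -2.92 ± 0.22). All of these moved the same way past the threshold in eur1-11, with total counts and without replicate 3. NRT2.7, a vacuolar transporter known from seeds, went from 1.13 ± 0.313 CPM to 0 counts at 96 h in WT (at least 43.9-fold lower against 3 counts over the group), while eur1-11 gave 1.13 ± 1.0 on the log2 scale (adjusted p = 0.327), and the interaction had an adjusted p of 0.102.

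At 24 and 96 h in WT, genes that serve the reductases passed with TMM factors no more often than all genes did. All 13 genes of molybdenum cofactor and sirohaem synthesis and of electron supply were tested, and 8 passed at 24 h in WT, 7 higher and 1 lower (median 0.55), where 68% of all genes passed, 35.9% higher. At 48 and 72 h 11 passed, 10 and 9 of them higher, against 68.8% and 67.9% of all genes. At 96 h 8 passed, 6 higher and 2 lower (median 0.25), against 68.9% of all genes, 38.1% higher. With total counts 12 were higher and 0 lower at both times, where 68% and 78.9% of all genes were higher. FD3, a ferredoxin of non-green plastids, rose from 7.65 ± 0.98 to 39.8 ± 10.6 CPM at 24 h (log2 2.37 ± 0.19, adjusted p = 7.92e-10), and RFNR1, the ferredoxin-NADP oxidoreductase that feeds it, from 14.2 ± 1.42 to 50.9 ± 14.7 CPM (1.81 ± 0.18). UPM1, which makes a precursor of the sirohaem held by nitrite reductase, fell from 63.2 ± 3.77 to 28.4 ± 6.57 CPM (log2 -1.18 ± 0.14) and stood at -0.07 with total counts. In eur1-11 10 of 13 passed at 24 h, 9 higher and 1 lower, and 9 at 96 h, 7 higher and 2 lower, against 66.3% and 68% of all genes.

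Of 33 regulators of the nitrate response 32 were tested, and 23 passed at 24 h in WT, 7 higher and 16 lower (median -0.42), close to the 68% of all genes, or 18 higher and 7 lower with total counts (all genes 68% and 12.1%). At 96 h 24 passed, 12 higher and 12 lower (median -0.17), against 68.9% of all genes, or 23 higher and 4 lower with total counts (all genes 78.9% and 8.92%). In eur1-11 24 passed at 24 h, 9 higher and 15 lower, and 25 at 96 h, 12 higher and 13 lower, against 66.3% and 68% of all genes. BT1, a BTB protein of the nitrogen response, fell from 78.2 ± 11.7 to 5.08 ± 1.3 CPM at 24 h (log2 -3.92 ± 0.40, adjusted p = 2.35e-08), and its relative BT2 from 17.2 ± 3.42 to 3.64 ± 2.17 CPM (-2.26 ± 0.40). CPK32, a calcium-dependent kinase that acts on the nitrate regulator NLP7, fell from 518 ± 91.2 to 86 ± 16.4 CPM (-2.60 ± 0.11, adjusted p = 1.36e-13). HRS1, a repressor of NRT2 genes, had 0 counts in WT at 0 h and 1.78 ± 0.21 CPM at 96 h, at least 27.4-fold higher against 3 counts over the group. All of these also passed in the same direction in eur1-11, with total counts and without replicate 3.

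**Figure D4:**
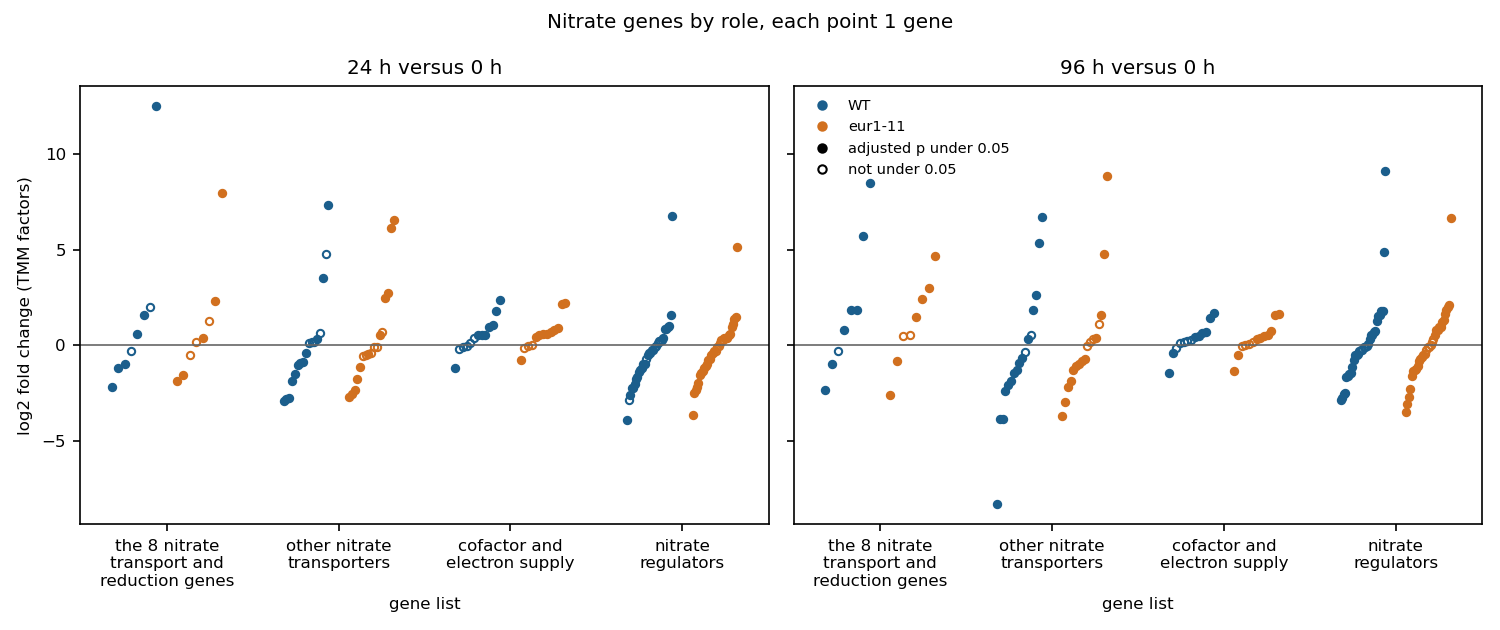
Log2 fold change (TMM factors) against 0 h at 24 h (left) and 96 h (right) for every tested gene of the 4 lists, 1 point per gene, in WT (blue) and eur1-11 (orange). Filled points had an adjusted p under 0.05 and open points did not, and in WT at 24 h 9 of 17 other transporters fell and 3 rose while 7 of 13 cofactor and electron supply genes rose and 1 fell, where 32.1% of all genes fell and 35.9% rose. With total counts, not drawn here, the transporters had 8 higher and 4 lower and the cofactor genes 12 higher and 0 lower.

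Over the 10 group means, the genes whose log2 CPM ran most like each of the 8 were found by Pearson's r. They were sought among tested genes with a mean of at least 1 CPM over all libraries. The r is a description, since the groups share replicates and all follow the same time course. NIR1 ran with WIH2 (0.997) and CLP2 (0.997), a subunit of the plastid Clp protease. NRT1.7 ran with AT4G10930 (0.999), annotated as a RING/U-box protein, and DHAR1 (0.995), a dehydroascorbate reductase. NRT1.1 ran with AT4G28240 (0.992), annotated in the wound-responsive family, and AT3G22240 (0.990). NRT2.5 ran with AT1G51790 (0.994), a leucine-rich repeat kinase by annotation, and CSN5A (0.993), a COP9 signalosome subunit. NRT1.5 ran with ATSERAT3;1 (0.987), a serine acetyltransferase, and UGE1 (0.967), a UDP-glucose epimerase. NIA2 ran with RPS4 (0.978), a disease resistance protein, and AT4G04460 (0.971). The likeness was lower for NRT2.1, with CSLA02 (0.953) and AT4G32950 (0.936), annotated as a protein phosphatase 2C, and lowest for NIA1, with AT1G27200 (0.914) and AOX1A (0.865), the alternative oxidase of mitochondria. Between the 8 genes themselves r was highest for NIA2 with NIR1 (0.93) and lowest for NRT1.1 with NIR1 (-0.95). All r values rest on TMM factors. With total counts NIA2 was higher and NIR1 lower at 96 h than at 0 h in both genotypes, and r under that scaling is not given here.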

How the data were processed

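RNA was sequenced from the petiole region of excised leaves in 30 libraries, 3 in each of 10 groups. The authors used FastQC on the reads, STAR for alignment to TAIR10 and HTSeq to count reads per gene, and the raw counts were deposited in 1 table without normalization. Tool versions, the annotation release and the strand setting are not given in the sources used here. Counts on no gene (3.58 to 6.76% of a library) and ambiguous reads (2.43 to 3.45%) were left out. Names, positions and sequences are from TAIR10.1, which held 32835 of the 33602 identifiers. For 7 of 104 list genes the listed name was not in that annotation, and these were matched by identifier.

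Tests were edgeR 4.0.16 quasi-likelihood F tests in R 4.3.3 on these counts, with TMM factors and filterByExpr by group (21472 genes), 1 term per group over all libraries and the replicate number as a block, which the study also put into its model. The Benjamini-Hochberg adjustment ran over all genes, with calls under 0.05, and the SE is the absolute log2 fold change over the square root of F. At a given time, deviations from group means correlated by over 0.1 in 15 of 15 pairs of equal replicate number from the 2 genotypes (mean r 0.518 over 16257 genes). The mean of -0.211 in 30 unequal pairs largely follows from this, because the deviations within a group sum to 0. These pairs lie within a time, whereas the block of the main fit spans all times. The pairing comes from these correlations and not from a label. Alternatives were total-count, upper-quartile and DESeq2 1.42.0 size-factor scaling, no organelle genes, no filter, the DESeq2 Wald test, no block, the block within each time, and each replicate left out. The edgeR step was tested on simulated data. Intervals and floors (3 counts) cover counting error only. The 9 genes, the lists and the tests were chosen with earlier results of these data known, and the lists were written from general knowledge. Named list genes were up to 3 called genes per list with the largest absolute log2 fold change in WT at 24 and at 96 h and at least 1 CPM. The most alike genes were the 2 with the highest r among tested genes with a mean of at least 1 CPM over all libraries.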

Additional observations from a re-analysis of the deposited data

How the results depend on the processing

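With total counts in place of TMM factors, which raised the median gene, NRT1.5 turned to 0.11 (WT 24 h), 0.78 (WT 48 h) and 0.98 (eur1-11 48 h) against 0 h, NIA1 to 0.96, 0.22 and 1.31 (WT 48, 72 and 96 h) and 1.27 (eur1-11 72 h), and NIA2 to 0.33, 0.45 and 0.61 (WT 48, 72 and 96 h) and 0.56, 0.75 and 0.65 (eur1-11). NIR1 from 24 to 96 h in WT turned to 0.36. Without replicate 3, NIA1 between genotypes at 48 h turned to 0.46 (-0.65 without replicate 1) and NIA2 from 24 to 96 h in WT to -0.19 (0.40 without replicate 2). With total counts the number of genes called out of 8 was 7 for 24 to 96 h in WT and 8 for 72 h in eur1-11. For the latter 86% of all genes passed. Between genotypes the number was 1 at 0 h and 2 in the mean of times. Apart from the 86%, no share of all genes is given here for these total-count numbers. The number was 0 in the mean of times without the replicate block. With the block within each time it was 3, 1, 1 and 2 at 24, 48, 72 and 96 h and 6 in the mean. Of all genes 2.37%, 2.51%, 1.8%, 2.73% and 16% then passed.

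With 1 replicate left out, the counts ran from 4 to 8, 5 to 8, 4 to 8 and 5 to 8 in WT at 24, 48, 72 and 96 h against 0 h, and from 3 to 6, 4 to 8, 3 to 6 and 3 to 7 in eur1-11. From 24 to 96 h they ran from 2 to 6 in both genotypes. Between genotypes they ran from 0 to 1, 0 to 5, 0 to 5, 0 to 3 and 0 to 4 at 0 to 96 h and 0 to 6 in the mean, and for the interaction from 0 to 3, 0 to 2, 0 to 3 and 0 to 3. The high ends came without replicate 3, the low ends without replicate 1 or 2. The share of all genes moved as well. Without replicate 3, 10.9%, 5.4%, 6.74%, 9.16% and 13% passed between genotypes at 0 to 96 h. With all replicates it was 2.08%, 0.331%, 0.34%, 0.48% and 0.517%. In the mean of times it was 21.8% without replicate 3 and 5.71% with all. For the interaction it was 3.66%, 3.26%, 5.84% and 7.67% without replicate 3. No share of all genes is given here for the other counts with 1 replicate left out. Without the block, 5 of 160 single values lost and 1 gained its call. Scaling by upper quartiles or DESeq2 size factors, no filter, no organelle genes and the DESeq2 test left 156 or more of 160 with the same direction and call. The cause was not tested. Depth limits NRT2.1 and NRT2.5 at 0 h, with 0 to 8 counts per group, and NRT2.4, with none.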
